A study of Solanum lycopersicum with 39 samples.

Results

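The 51 genes described here had a higher mean expression in tomato leaves 1 d after the end of a heat treatment than before it. The rule given below barred such a rise while the heat lasted. For 10 of them the higher mean rests on a single recovery library. The 51 were picked from the 34075 genes of the heat table by their expression alone. FPKM, the sequenced fragments of a gene set against its transcript length and the depth of the library, were first brought to a common scale by dividing each library by a median-ratio factor (for each gene, its value over the geometric mean of the gene in all libraries), and are called scaled FPKM below. For each gene, D was the log2 of a group's mean scaled FPKM plus 1, minus the same value of Heat-0h. Members had a mean of at least 5 scaled FPKM in Heat-Recovery, D of at least 1.5 in Heat-Recovery, and D under 0.5 at 2, 4, 12 and 24 h of heat. Of the 395 genes that met the terms for Heat-Recovery, 344 had D of 0.5 or more at a heat time, and the other 51 are the members. The rule used every heat library, so the heat values of the members are given as a description, with no test, and the drought series of the same study serves as the independent set.

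RNA was sequenced from leaves of Solanum lycopersicum cv. M82, a cultivar described as sensitive to heat and to drought. Seedlings were grown at 25 °C and 70% humidity with 16 h of light and 8 h of dark, and were 38 d old at treatment by the labels. A younger age is given in the methods. In the heat series, plants were kept at 42 °C and 90% humidity for 0 h (Heat-0h), 2 h (Heat-2h), 4 h (Heat-4h), 12 h (Heat-12h) and 24 h (Heat-24h), and Heat-Recovery plants had 24 h of heat followed by 1 d under the growth conditions. In the drought series, water was withheld, day 0 (D-0d) was set when soil water had fallen to about 80%, plants were taken after 1 to 5 d (D-1d to D-5d), and D-Recovery plants were re-watered and taken 1 d later. There were 3 libraries in each of the 6 heat groups and 7 drought groups. They are described as biological replicates for heat, while the p-values below are from the drought series. The limma p-values rest on the spread between libraries of a group, estimated over all groups of a table together. Neither series held untreated plants of the later times, so recovery and the later age of the plants cannot be told apart.

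Plants that return from heat to normal temperature pass through a phase of recovery, in which heat shock proteins decline, damaged proteins and membranes are replaced and photosynthesis is built up again. Transcripts that appear in this phase and not under heat are therefore often studied apart from the heat response itself. Re-watering after drought is a comparable return to favourable conditions, in which closed stomata open again and genes held low by water shortage can regain their level. No source used here pairs the IDs of the 51 members with names or functions, so they are given by ID. None of them is among the genes the study listed by ID in its supplement.

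The heat table was uneven in its FPKM sums and scaling factors. FPKM summed to between 559548 and 895476 in the heat libraries and to between 694973 and 815091 in the drought libraries, and the absolute depth is unknown because no counts are in the tables. The scaling factors ranged from 0.667 to 0.946 in Heat-Recovery and from 1.28 to 1.36 in Heat-0h. With the FPKM as deposited, the median log2 fold change of all genes in Heat-Recovery against Heat-0h was -0.53, and with scaling it was -0.01. In the drought table the same median with deposited FPKM ran from -0.09 to 0.23 over its 7 comparisons. Replicate 2 of D-3d stood apart with 13889 genes listed at 0, where the other drought libraries had 10819 to 12054, and leaving it out of the other comparisons changed no count of calls by over 1.5 times. The labelled tissue was checked with 19 light-harvesting complex genes, the antenna proteins of leaf photosystems. All 19 were above 0 in every library of each group but D-3d, where 18 were, and their summed level was 24637 to 39968 scaled FPKM in Heat-0h, 2225 to 5411 in Heat-24h and 12028 to 32276 in Heat-Recovery. In these bulk samples fewer cells of a type and less RNA per cell cannot be told apart.

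The members split by how many recovery libraries carried them. Of the 51, 40 were above 0 in all 3 Heat-Recovery libraries, 1 was above 0 in 2 of them, and 10 were above 0 in a single one, 2 of these in replicate 1, 5 in replicate 2 and 3 in replicate 3. The 11 members outside the first set were listed at 0 in all 15 other heat libraries, and the 9 highest values of D among the 51 were all theirs. Solyc09g064400.2 had 0, 0 and 37306 scaled FPKM in Heat-Recovery and 0 in each Heat-0h library, and its D of 13.60 was the highest. Solyc05g023990.2 likewise had 0, 0 and 24616 scaled FPKM in Heat-Recovery and 0 in each Heat-0h library, and the next highest D. Both values came from replicate 3 alone. A value of 0 in tables of this kind can be a failed estimate. In the drought table Solyc09g064400.2 was above 0 in 8 of 21 libraries, up to 95.1 scaled FPKM, and Solyc05g023990.2 in 4 of 21, up to 60.3. For these 10 genes the label of a gene raised in heat recovery rests on 1 library each. The heat values below are those of the other 40.

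**Figure D1:**
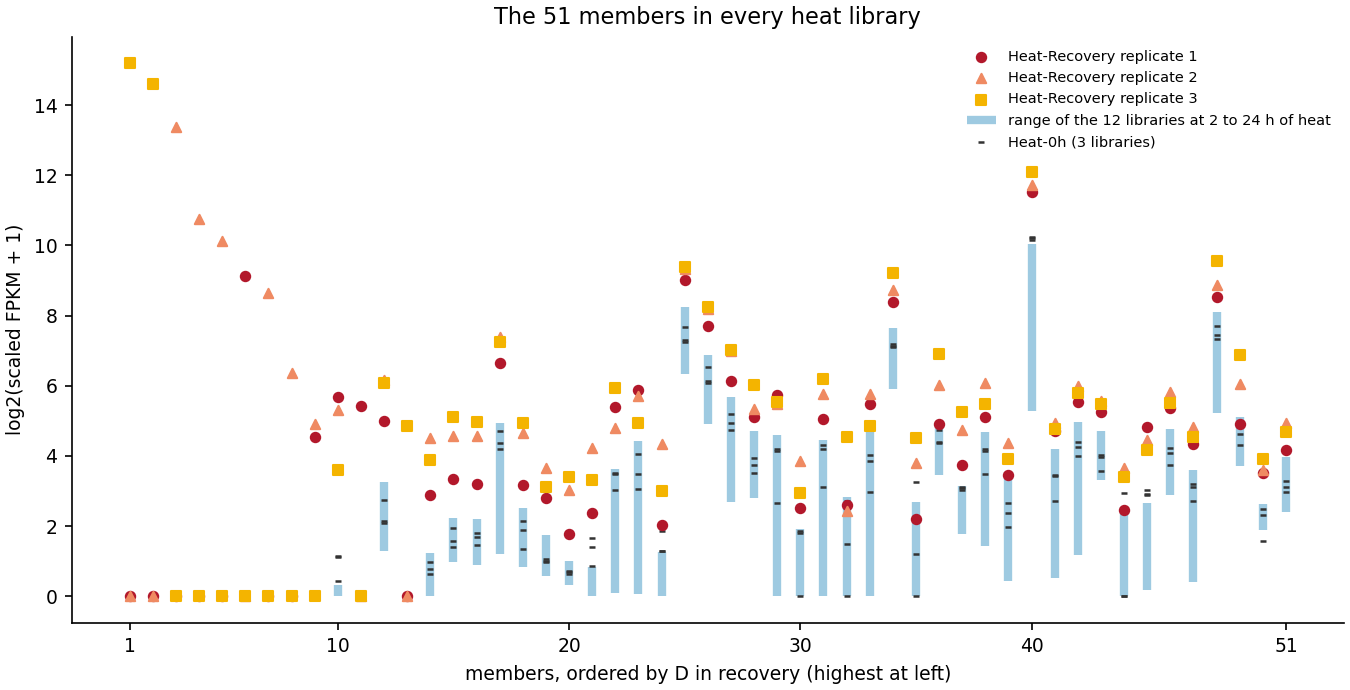
Scaled FPKM of the 51 members on a log2(value + 1) axis, ordered by D in Heat-Recovery. Coloured symbols are the 3 Heat-Recovery libraries, bars the range of the 12 libraries at 2 to 24 h of heat, and short dashes the 3 Heat-0h libraries. The members with the highest D at left have a single library far above 0, while for most of the others all 3 symbols lie above the bar.

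The 40 members above 0 in all recovery libraries had a median of 37.5 scaled FPKM in Heat-Recovery and 8.07 in Heat-0h, where the median of all 18770 genes tested was 7.15. Their median D in Heat-Recovery was 1.76, against -0.01 over all genes tested. All 3 Heat-Recovery libraries lay above all 3 Heat-0h libraries in 36 of the 40 (29.4% of all genes tested), and above all 15 other heat libraries in 33 (6.29% of all genes tested). In the limma fit of the heat series, 36 of the 40 were called higher, where 6.01% of all genes were, and since the rule chose them on this contrast nothing is read from that count. The highest D among the 40 was that of Solyc06g068130.3, at 4.17. It had 50.3, 38.8 and 11.1 scaled FPKM in Heat-Recovery and 0.358, 1.16 and 1.19 in Heat-0h. Solyc05g006830.3 followed with D of 3.47, from 30.6, 71.0 and 66.7 scaled FPKM in Heat-Recovery and 5.70, 3.45 and 3.29 in Heat-0h. In both genes the groups did not overlap, but the 3 recovery libraries of Solyc06g068130.3 differed several-fold among themselves. The most abundant of the 40 was Solyc07g043420.3, which had 2965, 3379 and 4337 scaled FPKM in Heat-Recovery and 1214, 1187 and 1137 in Heat-0h, with D of 1.59.

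The recovery libraries did not carry the members equally. Of the 40, 33 had their lowest value in replicate 1, and the median of D computed from single libraries was 1.33, 1.85 and 2.01 for replicates 1, 2 and 3. The median coefficient of variation of the 3 libraries was 35.3%. Without replicate 1 the rule kept 63 genes, without replicate 2 it kept 37 and without replicate 3 it kept 42, and 19 of the 51 members were kept whichever recovery library was left out. Over all 18 heat libraries left out in turn, 12 members were kept each time. The rule was also applied without 1 Heat-Recovery and 1 Heat-0h library, for all 9 pairs. The log2 difference between those 2 libraries was then read for the genes so chosen. These sets held 31 to 66 genes and are not the 51 members, for which no library was held out. The values below therefore describe the rule and not the members. Between 28.1 and 66.7% of the genes chosen had a held-out difference of at least 1.5, where 1.87 to 3.37% of all genes tested had. The median difference was 1.08 to 1.69 for the genes chosen and lay between -0.02 and 0 for all genes. The 3 lowest medians, 1.08 to 1.17, were those with replicate 1 held out.

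Membership was decided by small steps at the thresholds. Just inside the limit on D in Heat-Recovery were Solyc12g088320.2 (1.504), Solyc07g040780.4 (1.506) and Solyc00g500035.1 (1.517), and just outside it were Solyc02g065780.1 (1.495), Solyc02g092970.3 (1.472) and Solyc07g043400.1 (1.461). The last of these averaged 3652 scaled FPKM in Heat-Recovery and 1326 in Heat-0h, close to the level of the member Solyc07g043420.3. Just inside the limit on D under heat were Solyc02g087060.4 (0.480), Solyc05g006830.3 (0.480) and Solyc05g013330.4 (0.465), and just outside it Solyc06g072840.3 (0.520), Solyc02g082200.4 (0.528) and Solyc05g014500.3 (0.585). Near the limit on the mean in Heat-Recovery, Solyc00g500324.1 was kept with 6.39 scaled FPKM and Solyc12g068075.1 was left out with 4.84. With deposited FPKM the rule kept 26 genes, of which 21 were members. Only 10 of these 21 were above 0 in all 3 recovery libraries, and the other 11 were the members at 0 in all other heat libraries, so 10 of the 40 kept their place without scaling. All 40 members above 0 in the 3 recovery libraries kept a fold change above 0 in Heat-Recovery against Heat-0h with deposited FPKM, at a median log2 of 1.14.

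While the heat lasted, the 40 members ranged from genes far below their starting level at 24 h to genes near it, without a gap between. Along 2, 4, 12 and 24 h their median D was -0.12, -0.40, -0.35 and -0.91, where the medians of all genes tested lay between -0.01 and 0.02. At these times D was -1 or less in 3, 4, 9 and 18 of the 40, beside 3.5, 5.14, 12.4 and 20% of all genes tested. The rule barred higher values under heat and not lower ones, so nothing is read from these shares. The lowest D at 24 h was -3.48, in Solyc05g045670.4. Its mean was 10.99 scaled FPKM in Heat-0h, 8.07 in Heat-2h, 1.83 in Heat-4h, 0.145 in Heat-12h and 0.077 in Heat-24h, and its Heat-Recovery libraries had 57.5, 51.4 and 29.7. The abundant Solyc07g043420.3 came next with D of -3.45. It had 125, 158 and 37.9 scaled FPKM in Heat-24h, below each Heat-0h library, and all of its Heat-Recovery libraries were above each Heat-0h library.

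Some members kept level through the heat. In 9 of the 40, D stayed between -0.5 and 0.5 at all 4 heat times, as it did in 19.6% of all genes tested. The rule barred D of 0.5 or more at these times, so nothing is read from this share. Solyc04g077130.1 was the most abundant of these 9, chosen for mention after its values were seen. Its means were 171, 174, 163 and 196 scaled FPKM at 0, 2, 4 and 12 h, its Heat-24h libraries had 226, 164 and 162, and its Heat-Recovery libraries had 515, 637 and 661. At 2 h its libraries ranged from 79.8 to 304, so the level course of its means hides some spread, but none reached the lowest recovery library. The summed light-harvesting complex level, given above, was low at 24 h and back in the range of Heat-0h in 2 of the 3 Heat-Recovery libraries. In Heat-2h this level was 36482 to 69786 scaled FPKM, and in Heat-12h it was already 2094.5 to 2388.8. Its part in the courses of the members was not tested.

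**Figure D2:**
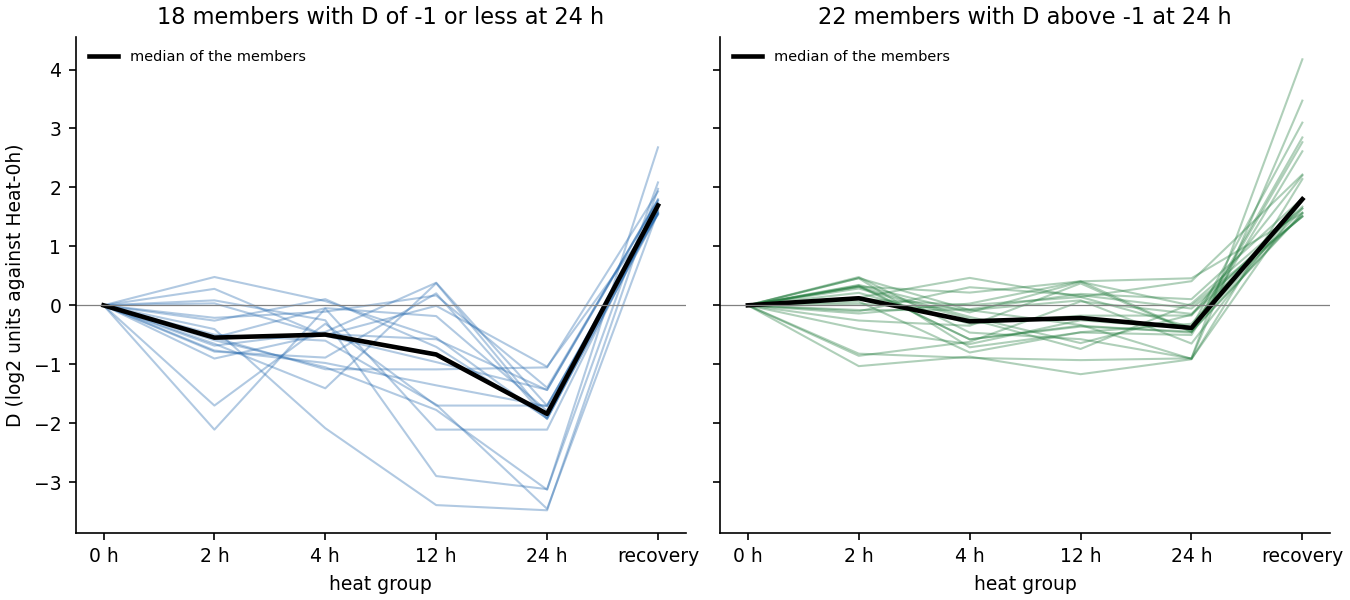
D (log2 units against Heat-0h, which is 0 by construction) of the 40 members above 0 in all 3 Heat-Recovery libraries, along the heat groups, with the median of each panel in black. At left are the 18 members with D of -1 or less at 24 h (median -1.84), and at right the other 22 (median -0.38). Both end at similar medians in recovery, 1.69 and 1.80, a rise the rule fixed.

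The 2 digits after Solyc in the ID of a member give its chromosome. Chromosome 0, which holds sequence not placed on a chromosome, had 6 of the 51 members (11.8%) and 513 of the 34075 genes listed (1.51%). Members of a chromosome are called neighbours here where their ID numbers are at most 50 apart, and other genes can lie between them. As the sequence of chromosome 0 is not placed, the order of its IDs gives no position. Of its 6 members, 5 form a run of such neighbours: Solyc00g500035.1, Solyc00g500042.1, Solyc00g500079.1, Solyc00g500088.1 and Solyc00g500125.1. The sixth is Solyc00g500324.1. Neighbouring IDs were also shared by Solyc07g007750.3 and Solyc07g007755.1, by Solyc11g006785.1 and Solyc11g006787.1, and by Solyc12g088300.2 and Solyc12g088320.2.

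The members of chromosome 0 moved as 2 blocks. Solyc00g500042.1 had 8.02, 24.0 and 29.7 scaled FPKM in Heat-Recovery and 3.38, 2.67 and 1.54 in Heat-0h, while Solyc00g500088.1 had 9.04, 22.9 and 33.2 in Heat-Recovery and 2.84, 1.98 and 1.65 in Heat-0h. Over the 18 heat libraries the ratio between these 2 genes stayed between 0.794 and 1.37, with Pearson's r of 0.991 on the log2 scale as a description over libraries that share their depth. Solyc00g500125.1 and Solyc00g500324.1 kept similar company with both, at r of 0.978 or more. The other block was Solyc00g500035.1 and Solyc00g500079.1, with r of 0.980 and a ratio of 0.888 to 1.28. Between genes of the 2 blocks r was still 0.861 to 0.897 over the heat libraries, so the blocks were not separate in course. The ratio across them varied more, from 2.72 to 26.6 for Solyc00g500035.1 to Solyc00g500042.1. Solyc00g500035.1 had 29.2, 65.2 and 117 scaled FPKM in Heat-Recovery and 29.6, 23.6 and 18.7 in Heat-0h, so that its recovery replicate 1 lay within the range of Heat-0h. The aligner was set to report 1 place for each read, and values of near-identical genes could be shared between copies, so the 6 genes may not be 6 independent measurements.

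Among the pairs of neighbours, likeness was less close. Solyc07g007755.1 averaged 267 scaled FPKM in Heat-Recovery and 75.7 in Heat-0h, and Solyc07g007750.3 averaged 9.77 in Heat-Recovery and 1.82 in Heat-0h. At 24 h the first had D of -0.31 and the second -1.05. Solyc12g088300.2 had 6.44, 21.97 and 13.6 scaled FPKM in Heat-Recovery and 0.558, 0.977 and 0.719 in Heat-0h, a D of 3.10, while Solyc12g088320.2 had D of 1.504. Solyc11g006787.1 was above 0 in 2 of the 15 other heat libraries, and Solyc11g006785.1 in 14.

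The drought series, which had no part in the rule, was used to ask how the members behave when water is withheld and given back. Of the 51 members, 48 had at least 1 scaled FPKM in 3 drought libraries and were tested among 19975 genes with limma, and a gene was called where its Benjamini-Hochberg adjusted p was at most 0.05 and its log2 fold change was 1 or more, or -1 or less. All comparisons with day 0 share the 3 D-0d libraries. On day 1, 5 members were called higher and 7 lower, where 5.76 and 9.84% of all genes were. On day 2, 7 were higher and 11 lower (7.98 and 16.1% of all genes), and on day 3, 9 were higher and 10 lower (9.22 and 17.9%). On day 4, 14 were higher and 9 lower (9.42 and 19%), and on day 5, 8 were higher and 9 lower (10.4 and 20.5%). As shares of the 48, the calls were 10.4, 14.6, 18.8, 29.2 and 16.7% higher and 14.6, 22.9, 20.8, 18.8 and 18.8% lower from day 1 to day 5. The median log2 fold change of the 48 ran from -0.10 on day 5 to 0.26 on day 4, and that of all genes tested from -0.04 to 0. The 48 include 8 of the members carried by fewer than 3 recovery libraries, and without them the calls were the same in number but for day 2, with 10 lower. With deposited FPKM the balance turned on day 2, to 11 higher and 7 lower, and on day 5 it was 11 higher and 9 lower. The calls higher also depended on how members were chosen. Among the 27 members that the rule kept with group medians, 1, 2, 3, 8 and 5 were called higher and 7, 9, 9, 8 and 8 lower from day 1 to day 5.

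**Figure D3:**
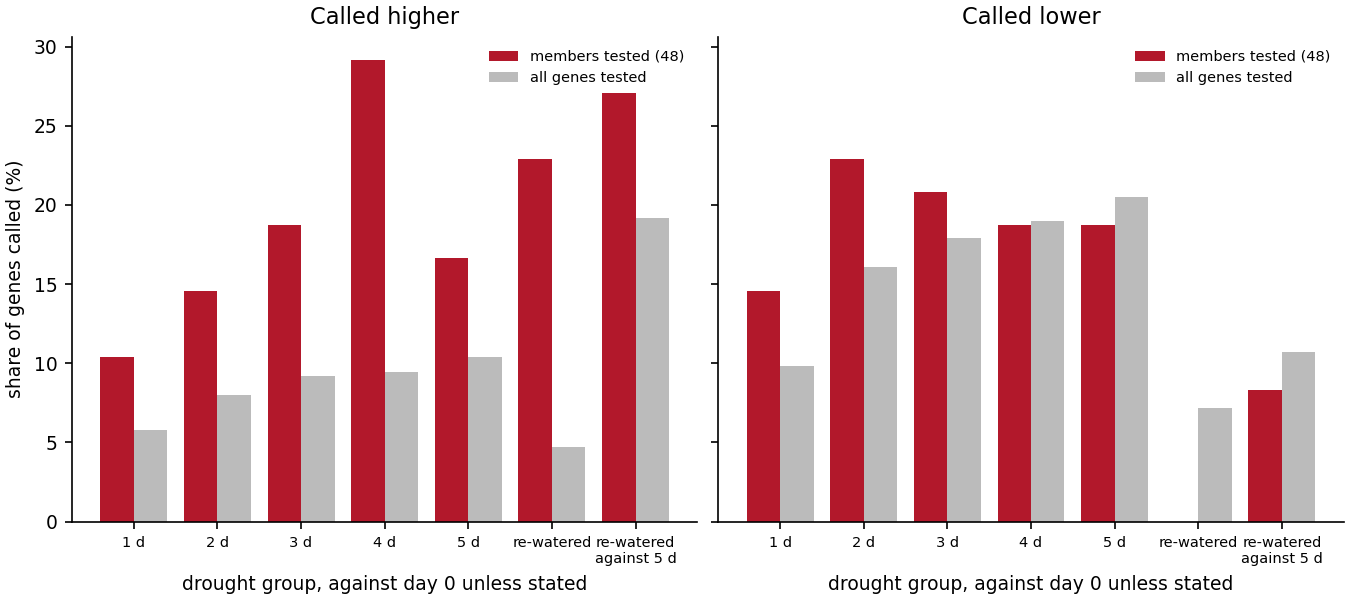
Share of genes called higher (left) and lower (right) in each drought comparison, in percent, for the 48 members tested (red) and all 19975 genes tested (grey). The members' share called higher stands furthest above the grey bars on day 4, at 29.2% beside 9.42%, and after re-watering against day 0, at 22.9% beside 4.74%, where none was called lower.

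Over the 5 days, 16 of the 48 members were called higher at least once and 13 lower at least once, where 14.7 and 24.7% of all genes were. None was called both ways (0.115% of all genes), and 19 were called on no day (60.7% of all genes). The comparison of the members' shares with those of all genes is a description, without a test, because the 48 are not independent of each other.

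The strongest rise was that of Solyc05g045670.4, the member with the lowest D at 24 h of heat. It had 241, 238 and 335 scaled FPKM in D-4d and 1.03, 0.825 and 1.00 in D-0d. Its log2 fold change was 7.11 ± 0.86 (SE, limma adjusted p = 1.86e-06). On day 5 it had 409, 101 and 34.4, still far above day 0 but spread over more than 10-fold among the libraries, with a log2 fold change of 5.87 ± 0.86 (SE, limma adjusted p = 1.33e-05). On day 3 it had 32.2, 26.3 and 1.12, where the last library was near the level of day 0. The call of day 3 (log2 fold change of 2.67, limma adjusted p = 0.0127) was lost without replicate 1 (adjusted p = 0.0760) and without replicate 2 of D-3d (adjusted p = 0.0680).

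Solyc06g068130.3, the member with the highest D among the 40, rose along with it. It had 89.2, 110 and 116 scaled FPKM in D-4d and 0.0396, 1.11 and 0.280 in D-0d, a log2 fold change of 6.22 ± 1.18 (SE, limma adjusted p = 0.000204). On day 5 it had 71.0, 57.1 and 3.26, with a log2 fold change of 4.21 ± 1.18 (SE, limma adjusted p = 0.00483). Replicate 3 of D-5d was low here too, and it was the lowest of its group in all 8 members called higher on day 5. The summed light-harvesting complex level was 4444 scaled FPKM in this library and 988 and 1033 in the others of D-5d, against 27010 to 36081 in D-0d. Without it, 12 members in place of 8 were called higher on day 5.

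Earlier rises were smaller and tighter. Solyc05g056480.3 had 41.4, 37.7 and 47.7 scaled FPKM in D-1d and 10.9, 13.3 and 11.8 in D-0d, a log2 fold change of 1.73 ± 0.16 (SE, limma adjusted p = 2.60e-07). It reached 60.2, 70.3 and 48.2 in D-2d, with a log2 fold change of 2.21 ± 0.16 (SE, limma adjusted p = 7.03e-09). Along with Solyc05g013330.4 it was 1 of 2 members called higher on all 5 days. Solyc05g013330.4 had 13.4, 14.4 and 10.8 scaled FPKM in D-3d and 1.84, 1.42 and 1.53 in D-0d, a log2 fold change of 2.41 ± 0.23 (SE, limma adjusted p = 1.57e-07). Solyc02g086180.4, an abundant gene, had 996, 669 and 1054.5 scaled FPKM in D-1d and 234, 271 and 319 in D-0d, a log2 fold change of 1.70 ± 0.24 (SE, limma adjusted p = 3.11e-05). In all of these the D-0d libraries lay below each drought library named.

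The members of chromosome 0 went the other way. All 6 were called lower on days 2, 3, 4 and 5, and 4 of them on day 1 as well. Solyc00g500042.1 had 4.57, 3.96 and 6.01 scaled FPKM in D-5d and 28.98, 37.6 and 21.8 in D-0d, a log2 fold change of -2.36 ± 0.22 (SE, limma adjusted p = 8.13e-08). Solyc00g500125.1 already had 7.54, 8.30 and 7.60 in D-1d and 22.7, 28.6 and 17.2 in D-0d, a log2 fold change of -1.41 ± 0.21 (SE, limma adjusted p = 3.66e-05). On day 3, Solyc00g500088.1 had 4.21, 4.46 and 4.08 scaled FPKM, against 20.9, 24.1 and 14.01 in D-0d, a log2 fold change of -1.94 ± 0.19 (SE, limma adjusted p = 1.90e-07). The D-0d libraries lay above each of these drought libraries. Over the 21 drought libraries the ratio of Solyc00g500042.1 to Solyc00g500088.1 stayed between 1.22 and 1.80, so their calls may not be separate. With deposited FPKM the log2 fold changes of the 6 genes on day 5 ran from -2.19 to -1.70, and with scaling from -2.36 to -1.84.

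Outside chromosome 0, the member with the lowest log2 fold change among those called lower on day 5 was Solyc12g088320.2. It had 3.10, 10.24 and 4.59 scaled FPKM in D-5d and 27.4, 40.9 and 28.3 in D-0d, a log2 fold change of -2.36 ± 0.35 (SE, limma adjusted p = 1.52e-05). It and 4 of the chromosome 0 members were called lower on all 5 days. Solyc05g053400.3 had 1.27, 1.09 and 3.27 scaled FPKM in D-2d and 10.7, 3.80 and 19.4 in D-0d, a log2 fold change of -1.94 ± 0.43 (SE, limma adjusted p = 0.000900). In neither gene did the groups overlap, although the D-0d libraries of Solyc05g053400.3 were wide apart. Solyc04g051470.1, called lower on day 1, had 0, 1.04 and 0.830 scaled FPKM in D-1d and 3.36, 3.82 and 8.92 in D-0d, a difference of -1.94 in log2 (SE 0.64, limma adjusted p = 0.0207). Its call was lost without replicate 1 of D-1d (log2 fold change of -1.62, adjusted p = 0.0862) and without 1 of the D-0d libraries (-1.56, adjusted p = 0.0917). The single call among the 8 tested members with fewer than 3 recovery libraries above 0 was that of Solyc05g010700.1 on day 2, with 22.9, 0 and 0 scaled FPKM in D-2d and 42.3, 33.0 and 20.8 in D-0d. Its groups overlapped, and the call was lost under 8 of its alternatives. For the 26 drought comparisons of members named by rule, here and below, an exact permutation test was added, two-sided over the 20 relabellings of the 6 libraries. It gave p = 0.2 for Solyc05g010700.1 and p = 0.1, the smallest the exact test can give, for all the others.

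**Figure D4:**
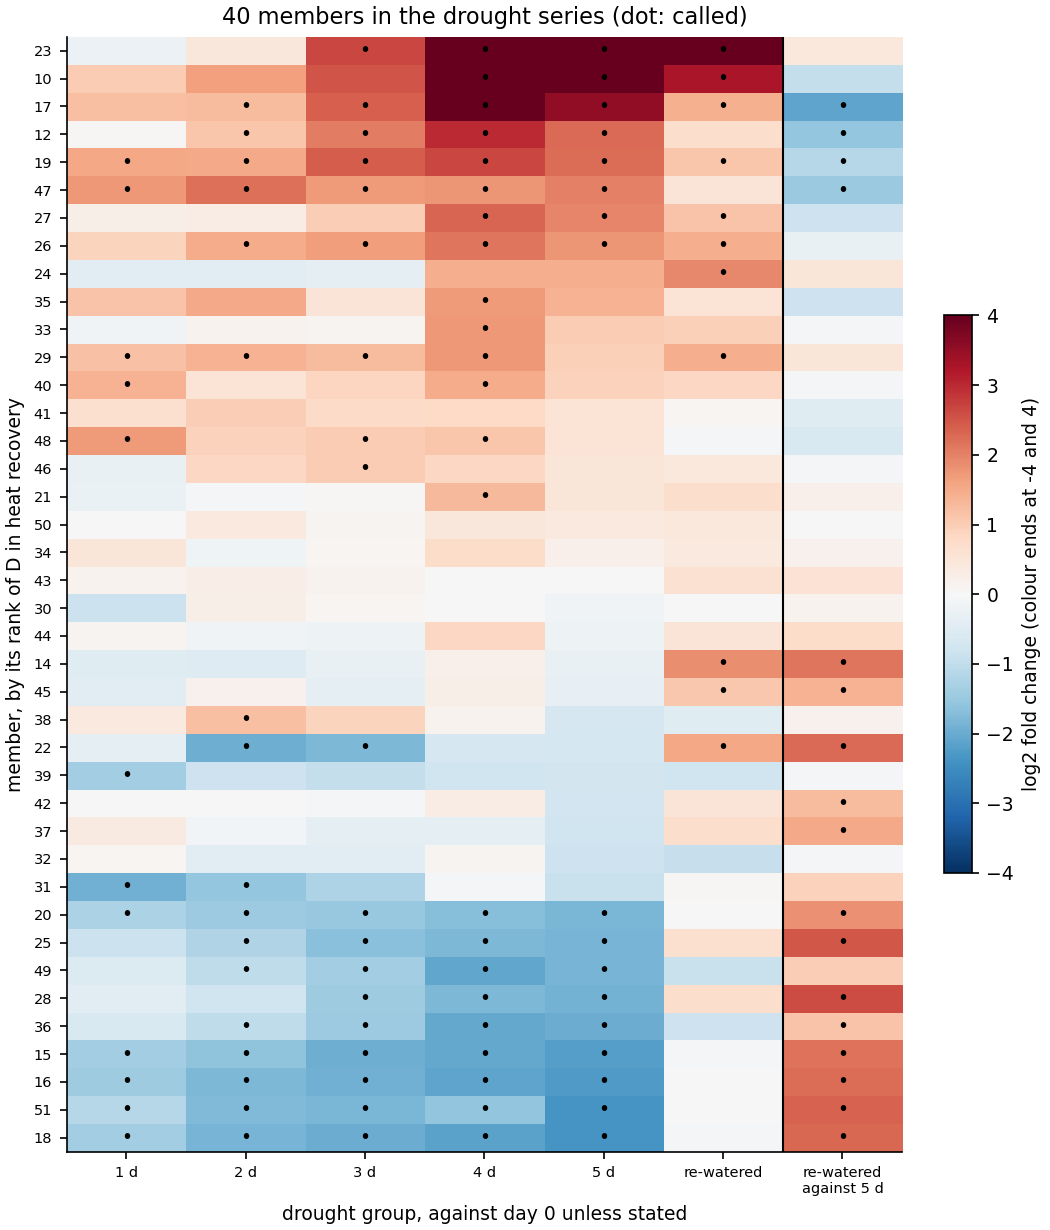
Log2 fold changes of scaled FPKM + 1 for the 40 members above 0 in all 3 Heat-Recovery libraries (one line each, numbered by rank of D in heat recovery and ordered by the value of day 5) in the 7 drought comparisons. A dot marks a call (limma, adjusted p at most 0.05, log2 fold change beyond 1 or -1). Red lines at the top rise by days 3 to 5, and blue lines at the bottom fall on those days and turn red in the last column, re-watered against day 5.

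After re-watering, 11 members were called higher and 0 lower in D-Recovery against D-0d, where 4.74 and 7.19% of all genes were. With no minimum fold change, at the same adjusted p, the counts were 14 higher and 3 lower, and 20 higher and 4 lower at an unadjusted limma p under 0.05. The median log2 fold change of the 48 was 0.52, and that of all genes tested 0.01. The count was sensitive to single libraries. It was 6 without replicate 1 of D-Recovery and 7 without 1 of the D-0d libraries. Replicate 1 was the highest D-Recovery library in 9 of the 11 members. The summed light-harvesting complex level was 23591 to 31410 scaled FPKM in D-Recovery, against 27010 to 36081 in D-0d.

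The largest of these differences was again that of Solyc05g045670.4, with 217, 161 and 101 scaled FPKM in D-Recovery and 1.03, 0.825 and 1.00 in D-0d. Its log2 fold change was 6.30 ± 0.86 (SE, limma adjusted p = 2.58e-05). Solyc06g068130.3 had 41.7, 4.30 and 9.98 scaled FPKM in D-Recovery and 0.0396, 1.11 and 0.280 in D-0d, a log2 fold change of 3.26 ± 1.18 (SE, limma adjusted p = 0.0390). The call of the second gene was lost without replicate 1 (adjusted p = 0.160) or replicate 3 of D-Recovery (0.0695), without any of the D-0d libraries (0.104, 0.0578 and 0.0870) and with no filter on low values (0.0562). Of the 11 members, 7 had also been called higher on a drought day, 1 had been called lower and 3 had been called on no drought day. These comparisons share the D-0d libraries. The same split over all genes was not computed, so nothing is read from these counts.

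Against D-5d, 13 members were called higher and 4 lower in D-Recovery, where 19.2 and 10.7% of all genes were. Their shares of the 48 were 27.1 and 8.33%. The 13 include 5 of the 6 chromosome 0 members, which may not be independent measurements, so nothing is read from the higher share. Among members chosen by the rule on deposited FPKM, 5 were called higher and 5 lower, so the balance of 13 to 4 was lost. Of the 9 members called lower on day 5 against D-0d, 8 were among these 13, a pair of comparisons that share the D-5d libraries. The 9 include all 6 chromosome 0 members. The share of all genes with both calls was not computed, so nothing is read from this overlap. Solyc02g087160.3 had 64.6, 85.1 and 66.4 scaled FPKM in D-Recovery and 7.75, 12.3 and 13.7 in D-5d, a log2 fold change of 2.60 ± 0.31 (SE, limma adjusted p = 1.08e-06). Solyc04g077130.1, level through the heat, had 312, 428 and 327 in D-Recovery and 52.0, 63.8 and 72.7 in D-5d, a log2 fold change of 2.48 ± 0.23 (SE, limma adjusted p = 5.58e-08). Of the chromosome 0 members, 5 of 6 were called higher against D-5d, and against D-0d 0 of 6 were called either way.

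The 4 members that fell on re-watering against D-5d had all been called higher on a drought day. The D-5d libraries are part of both kinds of comparison. The share of all genes with both calls was not computed, so nothing is read from this overlap. Solyc11g012130.2 had 47.8, 31.4 and 27.2 scaled FPKM in D-Recovery and 195, 251 and 72.4 in D-5d, a log2 fold change of -2.11 ± 0.50 (SE, limma adjusted p = 0.00137). Solyc05g006830.3 had 67.6, 53.2 and 66.1 in D-Recovery and 322, 167 and 114 in D-5d, a log2 fold change of -1.55 ± 0.31 (SE, limma adjusted p = 0.000362). The groups did not overlap in either gene. The other two, Solyc05g013330.4 and Solyc05g056480.3, were the members called higher on all 5 drought days, and their log2 fold changes were -1.14 and -1.498.

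Only 3 members were called higher in D-Recovery against both D-0d and D-5d, and they are named after their values were seen. Solyc12g088300.2 had 5.86, 5.43 and 3.65 scaled FPKM in D-Recovery, against 0.304 to 1.04 in D-0d, with log2 fold changes of 1.85 against D-0d and 2.13 against D-5d. Solyc05g053400.3 had 29.4, 40.7 and 20.9 in D-Recovery and 10.7, 3.80 and 19.4 in D-0d, with log2 fold changes of 1.53 and 2.25. Solyc10g061970.2 had 11.2, 8.83 and 15.2 in D-Recovery and 5.82, 4.63 and 4.54 in D-0d, with log2 fold changes of 1.07 and 1.39. In each of them the D-Recovery libraries lay above every D-0d library, and Solyc12g088300.2 and Solyc10g061970.2 were called on no drought day.

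The heat course and the drought calls can be set side by side, with the division at D of -1 at 24 h chosen after the values were seen and no test run on it. Of the 18 members with D of -1 or less at 24 h of heat, 9 were called higher and 0 lower on day 4 of drought (9.42 and 19% of all genes), and 7 were called higher and 0 lower in D-Recovery against D-0d (4.74 and 7.19%). Of the other 22, which include the 6 of chromosome 0, 5 were called higher and 9 lower on day 4, and 4 higher and 0 lower in D-Recovery against D-0d. Of the 5 called higher on day 4, 3 lay just across the division, with D at 24 h of -0.899, -0.902 and -0.915. Against D-5d, 3 of the 18 were called higher and 2 lower, and 10 of the 22 were called higher and 2 lower. Solyc05g045670.4 and Solyc00g500042.1 had unlike courses but do not stand for their classes. The first was low at 24 h of heat (D of -3.48) and rose in drought, with a log2 fold change of 7.11 on day 4, the highest of any member. The second had D of -0.50 at 24 h and fell in drought. On day 4 the median log2 fold change was 1.28 in the 18 and -0.01 in the 22. The other days differed less. On days 1, 2, 3 and 5, 4, 4, 5 and 4 of the 18 were called higher and 1, 1, 1 and 0 lower. Medians on those days were 0.10, 0.27, 0.31 and 0.73 in the 18 and -0.36, -0.34, -0.32 and -0.55 in the 22. Calls among all genes with D of -1 or less at 24 h were not counted, so no link between the 2 series is read from this. The tables were normalized separately, so levels are compared within a table only.

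**Figure D5:**
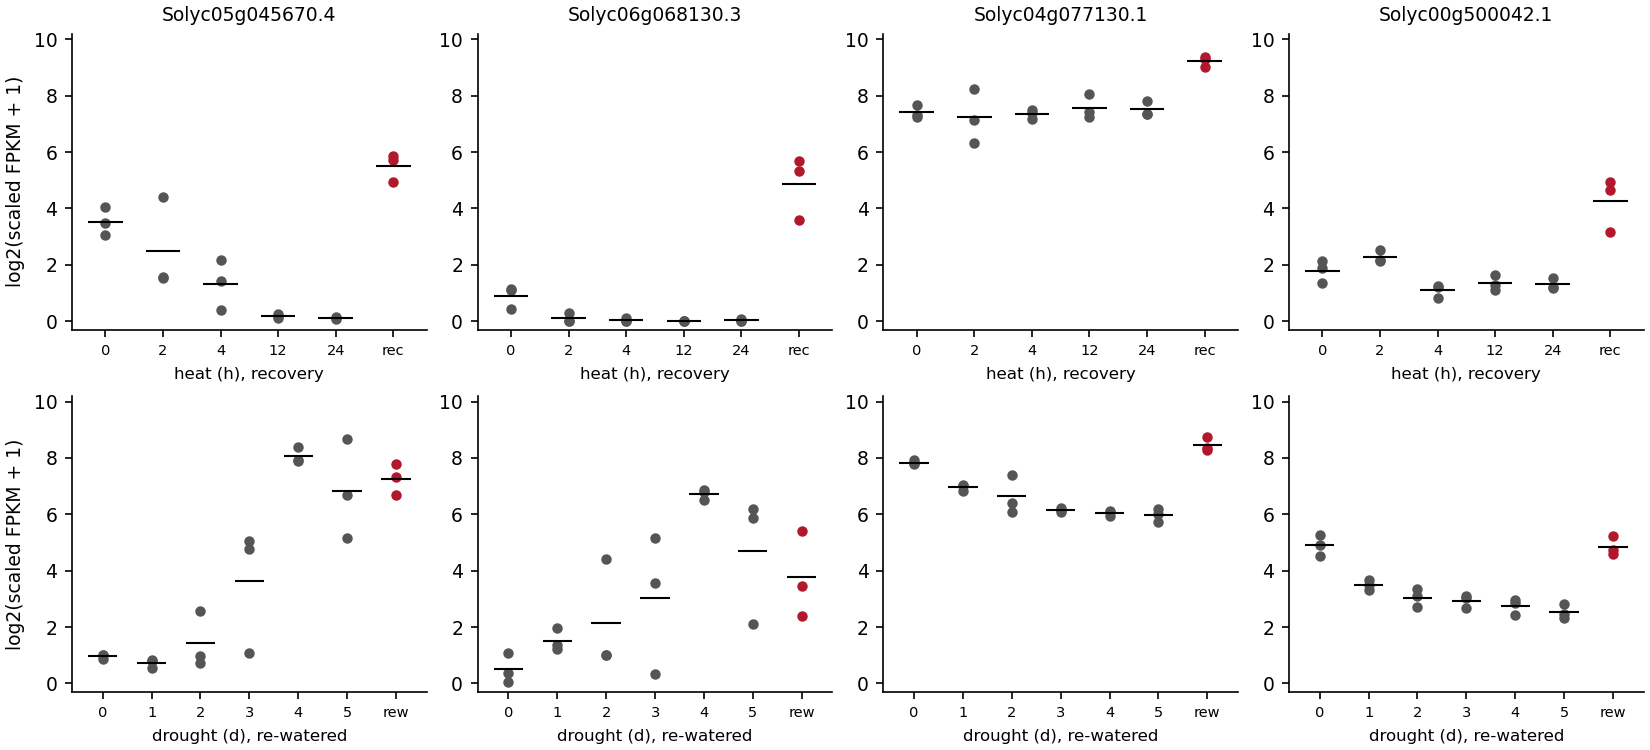
Scaled FPKM of 4 members on a log2(value + 1) axis in every heat library (top) and drought library (bottom), with the mean of each group as a line and the recovery or re-watered libraries in red. Solyc05g045670.4 and Solyc06g068130.3 were high on days 4 and 5 of drought and stayed above day 0 after re-watering, while Solyc04g077130.1 and Solyc00g500042.1 were low on those days and were back near or above the level of day 0 after re-watering.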

How the data were processed

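The authors aligned paired-end reads with TopHat to ITAG4.0 after trimming with Trimmomatic, ran Cuffdiff with a stranded library type, and deposited 1 table of FPKM per series. The methods state these settings for heat. For drought the sources used here name the tools alone. Members and lists were chosen with earlier results of these data known.

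Columns were matched to samples by name, and the 3 D-0d columns, whose numbers are not tied to the labels, were used as a group. FPKM were scaled by median ratios over the 17615 (heat) and 18823 (drought) genes above 0 in all libraries of a table. Genes with at least 1 scaled FPKM in at least 3 libraries were fitted on log2(scaled FPKM + 1) with limma 3.58.1 (R 4.3.3, empirical Bayes with a trend), all groups of a table together, with Benjamini-Hochberg adjustment. The pseudocount of 1 understates changes of low genes.

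Named genes were the members nearest the thresholds, runs of neighbouring IDs, and for each comparison up to 2 members that rose and 2 that fell. No ID matched the RefSeq table (assembly SLM_r2.1), so lists by keyword and markers of other leaf cell types were not run, and no sequences or coordinates are given. On simulated data for D-5d against D-0d, 94 of 100 genes changed by a log2 of 1.5 and 100 of 100 changed by 3 were called, with 2 false calls over 19318 genes. For D-Recovery against D-5d, 87 of 100 and 99 of 100 were called, with 3 false calls over 18552 genes. The noise was drawn separately for each gene, only genes above a floor in the base group were changed, and all others were left unchanged. The rates therefore do not cover members near 0 at the start, such as Solyc05g045670.4, with a mean of 0.953 scaled FPKM in D-0d.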

Additional observations from a re-analysis of the deposited data

How the results depend on the processing

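The rule kept 26 genes with deposited FPKM, 200 with D of at least 1 (its limit, from 211), 22 with D of at least 2 and 82 with D under 1 at the heat times, and 37 to 63 with single libraries left out. Members called in Heat-Recovery against Heat-0h numbered 36, and 16 with deposited FPKM, 14 for members chosen on deposited FPKM and 28 to 34 with single libraries left out. For members chosen on deposited FPKM, the calls from D-1d to D-5d numbered 7, 11, 10, 11 and 10, and 5 and 10 in D-Recovery against D-0d and D-5d, since fewer genes were counted. Members also chosen with group medians, a choice added after seeing the data, gave 11 calls on day 2 (2 higher) and 12 on day 3 (3 higher). With no minimum fold change D-Recovery against D-0d gave 17. With single libraries left out, calls ran from 10 to 13 (day 1), 13 to 19 (day 2), 18 to 22 (day 3), 22 to 23 (day 4), 17 to 22 (day 5), 6 to 11 (D-Recovery against D-0d) and 17 to 20 (against D-5d). Of 286 alternative values of the named members in drought, 267 kept direction and call, 19 kept direction alone and 0 reversed. Counting only members above 0 in 3 recovery libraries, also added later, moved no count by over 1.5 times.

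The replicate numbers did not pair the samples: same-numbered libraries of Heat-Recovery and Heat-0h had correlations of their deviations of -0.03, 0.01 and -0.09, and those of D-Recovery and D-5d 0.20, -0.12 and -0.08. With the replicate number as a block, 36 members were called in Heat-Recovery against Heat-0h and 17 in D-Recovery against D-5d. No paired analysis was possible because the D-0d columns carry no numbers tied to the labels, in the comparisons with day 0. Without counts, the depth behind low values, and so behind values of 0, is unknown.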

Other observations

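The opposite rule, with D of -1.5 or less in Heat-Recovery, D above -0.5 at the 4 heat times and a mean of at least 5 scaled FPKM in Heat-0h, kept 57 genes. Genes above 0 in a single library and reaching 100 scaled FPKM or more there were not particular to recovery: each of the 18 heat libraries held 0 to 5 of them, and the Heat-Recovery libraries held 1, 4 and 2.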
